A study of Mus musculus with 8 samples.

Results

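The 10 genes described here encode the machinery of inflammasomes, pyroptosis and necroptosis: the sensors Nlrp3, Nlrc4 and Aim2, the adaptor Pycard, the caspases Casp1 and Casp4, the gasdermins Gsdmd and Gsdme, and the necroptosis effectors Ripk3 and Mlkl. They were picked by name from the 33467 genes of the deposited expression table. All 10 were found there, each on a single row, and all passed the low-count filter that left 19535 genes for testing. Bulk sequencing of polyadenylated liver RNA covered 8 mice, all wild-type C57BL/6J and under 1 batch label. Control mice (n = 4) ate a standard diet and the others (n = 4) ate for 4 weeks a diet with 1% DDC, or 3,5-diethoxycarbonyl-1,4-dihydrocollidine, a compound used to model cholestatic injury and biliary fibrosis. The labels used here give neither age nor sex. The libraries held 61179103 to 81664058 counts, and the members' own counts ran from 32 for Nlrc4 in control 4 to 3817 for Gsdmd in DDC 3.

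An inflammasome is a protein platform that forms in the cytosol when a sensor detects infection or damage. The sensor, usually through the adaptor ASC encoded by Pycard, activates caspase-1, which matures interleukin-1β and interleukin-18 and cuts gasdermin D. The freed end of gasdermin D forms membrane pores and the cell dies by pyroptosis. Mouse caspase-11, encoded by Casp4, cuts gasdermin D after it binds bacterial lipopolysaccharide inside the cell. In necroptosis the kinase RIPK3 phosphorylates MLKL, which then breaks the membrane. In liver, macrophages are a known site of inflammasome activity.

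Casp1 and Casp4 are neighbours on chromosome 9 and were both higher in DDC livers, so stretches of their promoters are shown with that of Nlrp3, the member with the largest difference. Sequences are from RefSeq (GRCm38.p6), which matched 9 of the 10 members with 11 windows, Gsdmd being the member without one. Each is given 5′ to 3′ on the strand of the gene, and capitals mark matches to a 10-base NF-kB consensus on either strand.
Nlrp3 promoter, chr11:59541338-59541437, plus strand: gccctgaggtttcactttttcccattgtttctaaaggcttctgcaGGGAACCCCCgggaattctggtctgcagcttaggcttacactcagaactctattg
Casp1 promoter, chr9:5298408-5298507, plus strand: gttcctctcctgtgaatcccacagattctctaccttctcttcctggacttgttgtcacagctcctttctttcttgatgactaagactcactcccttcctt
Casp4 promoter, chr9:5308728-5308827, plus strand: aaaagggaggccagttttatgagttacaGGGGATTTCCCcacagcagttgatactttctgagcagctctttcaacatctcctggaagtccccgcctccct

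The Casp4 capitals hold a pair of overlapping matches, at -93 and -92 from the first of 2 annotated start sites and at -104 and -103 from the other. A further match, at -14 and -25 from these sites, lies outside the stretch shown. The Nlrp3 match starts at -186 from the first of its 2 annotated start sites and reads on the opposite strand. In windows of 250 bases before to 50 after a start site, 4.79% of all 32851 promoters held this motif on either strand. Of the members' 11 windows 3 did so. They belong to 2 of the 9 members, Nlrp3 and Casp4, and the Casp4 windows overlap and hold the same matches. The interferon response element (3.44% of all promoters), the PU.1 motif AGAGGAAGT (1.0%), the AP-1 motif TGANTCA (7.81%) and the TATA box TATAAA (13.6%) had no match in a member's window. A match describes the letters of a window and is not a measured binding site.

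In the deposited annotation (GRCm38), Casp1 (ENSMUSG00000025888) spans 5298508 to 5307290 on the plus strand of chromosome 9 and Casp4 (ENSMUSG00000033538) follows 1537 bases on, from 5308828 to 5336783. The other members are on separate chromosomes. Nlrp3 (ENSMUSG00000032691) lies on chromosome 11 at 59541568 to 59566956, Nlrc4 (ENSMUSG00000039193) on chromosome 17 at 74425438 to 74459142 and Aim2 (ENSMUSG00000037860) on chromosome 1 at 173350879 to 173466040. Pycard (ENSMUSG00000030793) is on chromosome 7 at 127989708 to 127993867, Gsdmd (ENSMUSG00000022575) on chromosome 15 at 75862327 to 75867408 and Gsdme (ENSMUSG00000029821) on chromosome 6 at 50188888 to 50263862. Ripk3 (ENSMUSG00000022221) is on chromosome 14 at 55784995 to 55788865 and Mlkl (ENSMUSG00000012519) on chromosome 8 at 111311797 to 111338177. Exon overlap was read from a GENCODE annotation, which does not give Casp1 the deposited coordinates. There Pycard alone shared exon bases with another annotated gene, 485 of 3800. That gene was Gm45205 on the opposite strand, which averaged 6.5 counts in controls and 4.5 in DDC.

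All 10 members were called higher in DDC livers (quasi-likelihood test of edgeR, threshold 0.05 after Benjamini-Hochberg adjustment over all genes) and 0 were called lower. Across all genes tested, 30.2% were called higher and 26.6% lower. The members' median log2 fold change was 1.68, against 0.073 for all genes. Called at 2-fold or more were 8 of 10 members, against 19.5% of all genes, and the exceptions were the 2 gasdermins. Levels below are in CPM, each count divided by the library total after a composition correction (TMM), as mean ± SD with n = 4 per group. Scaling touched their size: with library totals alone the median of all genes moved to 0.70 and that of the members to 2.30, and all 10 members were still called higher, as were 58.9% of all genes (8.96% lower). In bulk tissue, more cells of a type and more RNA per cell cannot be told apart.

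**Figure D1:**
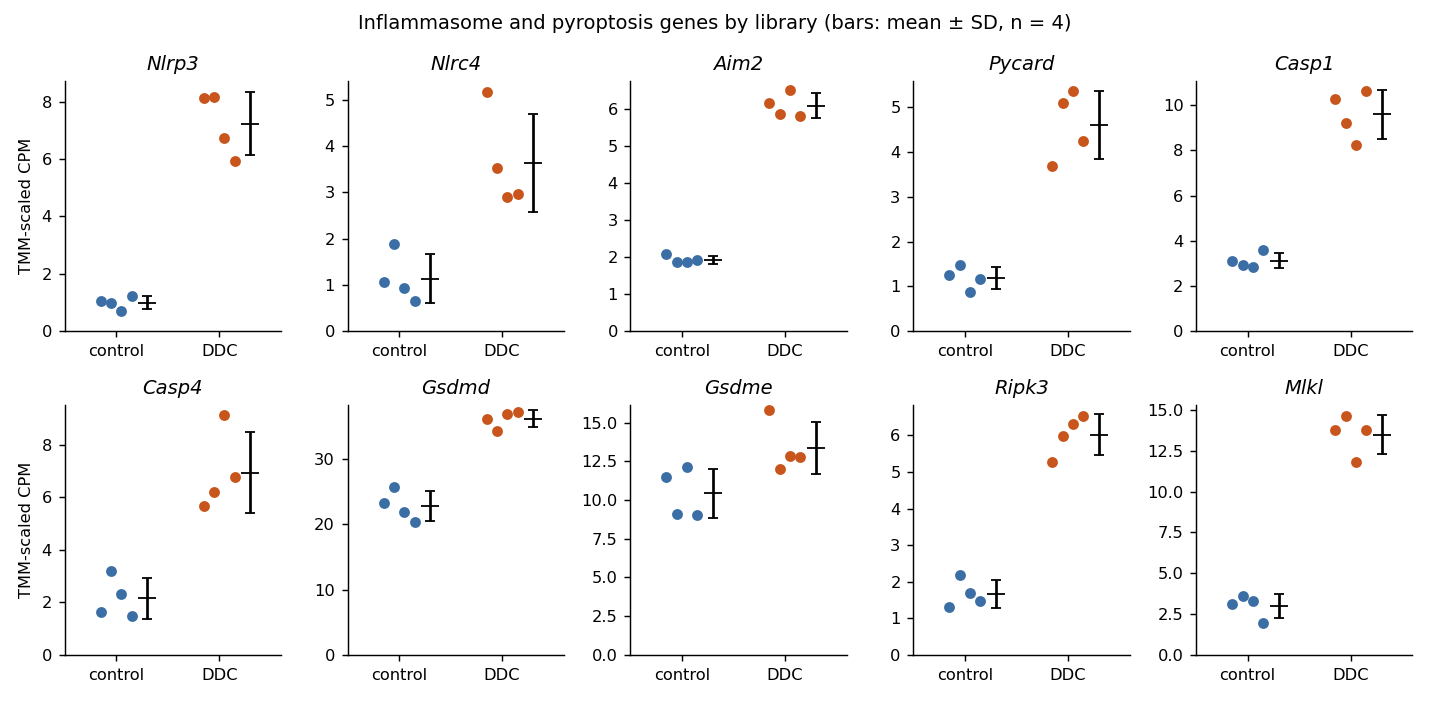
Each panel plots the TMM-scaled CPM of 1 gene (axis from 0) in the 4 control (blue) and 4 DDC (orange) libraries, with bars for mean ± SD. The groups are apart for every gene except Gsdme, where DDC 2 at 12.0 CPM lies just under control 3 at 12.1 CPM.

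The 3 sensors all rose, Nlrp3 by the most. Nlrp3, which responds to ion flux, crystals and membrane damage, was 1.05, 0.999, 0.704 and 1.24 CPM in controls 1 to 4 and 8.12, 8.17, 6.71 and 5.92 CPM in DDC 1 to 4. The lowest DDC library thus held 4.78 times the highest control. The rise was 7.24-fold, from 0.998 ± 0.221 to 7.23 ± 1.10 CPM (log2 change 2.86 ± 0.22 SE, adjusted p = 3.55e-06 by edgeR). Its log2 fold change stood at percentile 96.7 of the tested genes.

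Nlrc4, which assembles with NAIP proteins that bind bacterial flagellin and secretion system parts, was 1.07, 1.88, 0.932 and 0.661 CPM in controls 1 to 4 and 5.17, 3.52, 2.91 and 2.95 CPM in DDC 1 to 4. It had the widest relative spread among DDC libraries of any member, the highest being 1.78 times the lowest. Control 2 stood above the other controls and DDC 1 above the other DDC libraries, yet the groups did not overlap. Nlrc4 rose 3.20-fold (log2 change 1.68 ± 0.35 SE, adjusted p = 0.00264 by edgeR).

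Aim2, a sensor of double-stranded DNA in the cytosol, was among the steadiest members. It was 2.08, 1.86, 1.86 and 1.92 CPM in controls 1 to 4 and 6.18, 5.88, 6.53 and 5.82 CPM in DDC 1 to 4. The DDC libraries differed among themselves by at most 1.12 times. Aim2 rose 3.16-fold (log2 change 1.66 ± 0.14 SE, adjusted p = 6.99e-06 by edgeR).

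Pycard, whose product ASC links sensors to caspase-1 by a pyrin domain and a CARD, was 1.26, 1.47, 0.875 and 1.16 CPM in controls 1 to 4. In DDC 1 to 4 it was 3.69, 5.08, 5.35 and 4.25 CPM. DDC 1, the lowest, was still 2.51 times the highest control. Pycard rose 3.85-fold (log2 change 1.95 ± 0.23 SE, adjusted p = 6.19e-05 by edgeR).

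Both inflammatory caspases rose. Casp1, the protease of the canonical inflammasomes, was 3.12, 2.92, 2.85 and 3.57 CPM in controls 1 to 4 and 10.3, 9.23, 8.25 and 10.6 CPM in DDC 1 to 4. Its rise was 3.08-fold (log2 change 1.62 ± 0.14 SE, adjusted p = 6.85e-06 by edgeR), with tight groups far apart. Casp4, the intracellular lipopolysaccharide receptor, was 1.65, 3.19, 2.30 and 1.47 CPM in controls 1 to 4 and 5.67, 6.20, 9.14 and 6.78 CPM in DDC 1 to 4. Control 2 and DDC 3 were the high libraries of their groups. Casp4 rose 3.22-fold (log2 change 1.69 ± 0.27 SE, adjusted p = 0.000536 by edgeR).

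The gasdermins, the pore formers, differed least of the 10. Gsdmd was 23.3, 25.8, 21.8 and 20.4 CPM in controls 1 to 4 and 36.1, 34.3, 36.9 and 37.2 CPM in DDC 1 to 4. The groups were apart, and the rise was 1.58-fold, from 22.8 ± 2.28 to 36.1 ± 1.30 CPM (log2 change 0.66 ± 0.08 SE, adjusted p = 6.32e-05 by edgeR). Gsdme, whose pores can turn apoptosis into lytic death, was 11.5, 9.13, 12.1 and 9.0 CPM in controls 1 to 4 and 15.8, 12.0, 12.8 and 12.8 CPM in DDC 1 to 4. Here the groups overlapped, since 3 of 4 DDC libraries exceeded the highest control. Gsdme was called higher by 1.28-fold (log2 change 0.36 ± 0.13 SE, adjusted p = 0.0424 by edgeR), close to the threshold. That call ended when control 1, 2 or 4 or DDC 1, 3 or 4 was left out (edgeR adjusted p = 0.0508, 0.109, 0.116, 0.121, 0.0655 and 0.0662), with the smallest log2 fold change, 0.25, without DDC 1.

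The necroptosis pair rose as well. Ripk3, the kinase, was 1.32, 2.18, 1.69 and 1.47 CPM in controls 1 to 4 and 5.27, 5.98, 6.30 and 6.54 CPM in DDC 1 to 4. It rose 3.62-fold (log2 change 1.85 ± 0.20 SE, adjusted p = 3.18e-05 by edgeR). Mlkl, the membrane executioner, was 3.14, 3.63, 3.27 and 1.94 CPM in controls 1 to 4 and 13.8, 14.6, 11.8 and 13.8 CPM in DDC 1 to 4. Its 4.50-fold rise was the second largest of the 10 (log2 change 2.17 ± 0.19 SE, adjusted p = 8.20e-06 by edgeR), and the lowest DDC library held 3.25 times the highest control.

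**Figure D2:**
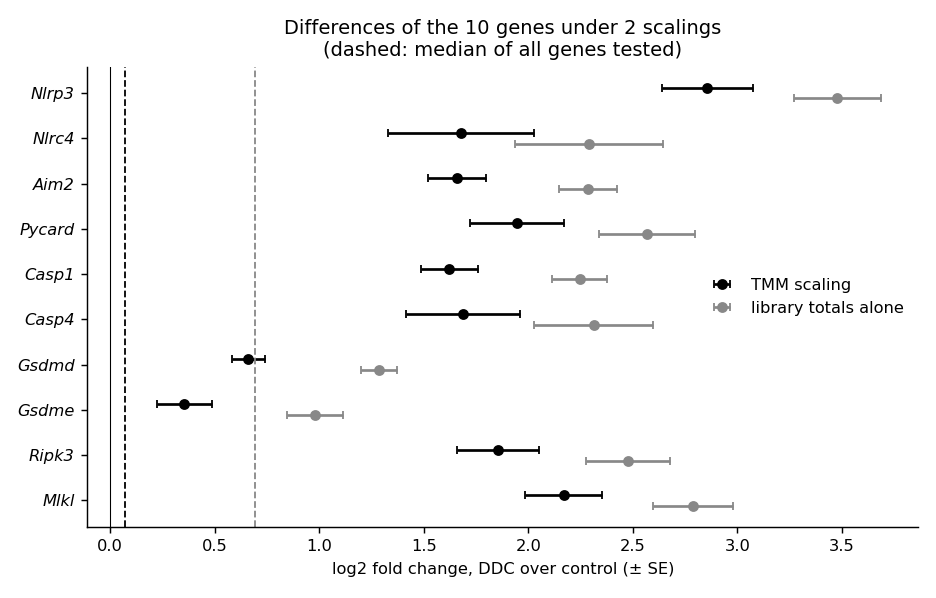
Points give the log2 fold change of DDC over control ± SE for each gene with TMM scaling (black) and with library totals alone (grey), and dashed lines give the median of all tested genes, 0.073 and 0.70. Nlrp3 lies furthest right at 2.86 and Gsdme nearest the median at 0.36 with TMM scaling.

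Groups were apart for 9 of 10 members with DDC higher, a state found for 26.9% of all tested genes, with another 25.7% apart and lower. In 6 members every DDC library held at least 2 times the highest control, against 8.63% of all genes. These were Nlrp3, Aim2, Pycard, Casp1, Ripk3 and Mlkl. Within the controls, control 2 gave the highest value for 6 members and control 4 the lowest for 5. Among DDC livers no library was the highest for more than 3 members.

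Levels of different genes were compared per transcript length, as deposited FPKM, which are scaled to library totals and so show larger differences than TMM-scaled CPM. Gsdmd was the most abundant member in both groups, at 7.46 ± 0.841 FPKM in controls and 18.1 ± 1.03 FPKM in DDC (SD, n = 4 each), above the ranges of all others. In controls Mlkl (1.00 ± 0.258 FPKM), Casp1 (0.769 ± 0.0707), Gsdme (0.635 ± 0.101), Ripk3 (0.548 ± 0.131), Casp4 (0.444 ± 0.170) and Aim2 (0.426 ± 0.0212) followed, each overlapping the next. Pycard (0.242 ± 0.0516 FPKM), Nlrp3 (0.187 ± 0.0417) and Nlrc4 (0.183 ± 0.0869) were the lowest, below the range of Aim2 and overlapping each other.

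In DDC livers Mlkl reached 6.97 ± 0.512 FPKM and stood apart below Gsdmd and above the rest. Casp1 (3.65 ± 0.409 FPKM), Ripk3 (3.12 ± 0.346), Casp4 (2.23 ± 0.540), Nlrp3 (2.12 ± 0.283) and Aim2 (2.07 ± 0.134) followed, each overlapping the next. Pycard (1.44 ± 0.248 FPKM), Gsdme (1.25 ± 0.151) and Nlrc4 (0.898 ± 0.248) lay below the range of Aim2, again each overlapping the next. Gsdme thus went from rank 4 to rank 9 and Nlrp3 from rank 9 to rank 6. Gsdmd made up 61.6% to 63.4% of the summed FPKM of the 10 genes in controls and 41.6% to 44.4% in DDC, while the sum went from 11.9 ± 1.38 to 41.9 ± 1.21 FPKM.

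**Figure D3:**
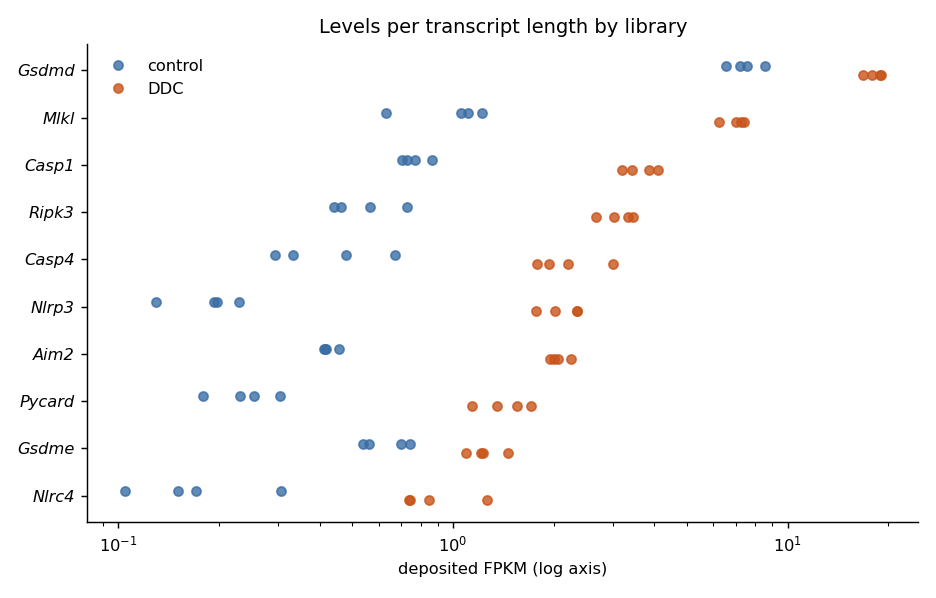
Points give the deposited FPKM of each gene (log axis) in the 4 control (blue) and 4 DDC (orange) libraries, ordered by the DDC mean. Gsdmd is highest in both groups, and Nlrp3 moves from 0.187 to 2.12 FPKM on average.

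Ratios of FPKM within a library do not depend on how libraries are scaled. Of the 4 pairs tested, Nlrp3 to Pycard was the pair whose groups did not overlap, at 0.776, 0.636, 0.722 and 0.996 in controls 1 to 4 and 2.06, 1.51, 1.18 and 1.30 in DDC 1 to 4. Its ratio was 1.91-fold higher in DDC (exact two-sided permutation p = 0.0286, the smallest that 4 against 4 allows, or 0.114 adjusted over the 4 pairs). Gsdme to Gsdmd was 0.0859 ± 0.0160 in controls and 0.0689 ± 0.00844 in DDC (exact permutation p = 0.0571, adjusted 0.114, n = 4 each). Mlkl to Ripk3 was 1.85 ± 0.438 and 2.26 ± 0.340 (exact permutation p = 0.2, adjusted 0.267, n = 4 each), and Casp4 to Casp1 was 0.591 ± 0.260 and 0.627 ± 0.212 (exact permutation p = 0.714, n = 4 each). No pair passed after adjustment. Nlrp3 to Pycard, already at the smallest p, could not have passed unless other pairs also reached that p.

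Markers of most white blood cell types rose as well, where 30.2% of all genes were called higher and 26.6% lower. All 5 pan-leukocyte markers rose, their summed level going from 47.9 to 59.4 CPM in controls to 271 to 293 CPM in DDC. All 12 markers of monocyte-derived macrophages rose, from 31.3 to 39.1 CPM to 803 to 962 CPM, and all 10 Kupffer cell markers, from 372 to 491 CPM to 1664 to 2148 CPM. Among the 12, the call of Ly6c2 ended without control 1, 2 or 4 or DDC 2, 3 or 4 (adjusted p 0.0575 to 0.101 by edgeR). Among the 10, Timd4 had a log2 fold change of 0.89, against a list median of 2.25. Its call ended with limma voom (adjusted p = 0.0657). Neutrophil markers rose in 7 of 8 cases (28.8 to 37.1 CPM in controls, 108 to 152 CPM in DDC) and T and NK cell markers in 5 of 9 tested (5.62 to 7.60 and 14.0 to 16.9 CPM). Of 5 B cell markers 3 were called lower and 1 higher, but 2 and 2 with library totals alone, and 1 and 1 with same-numbered libraries as blocks. The lower call of Cd79a ended without control 1, control 3, DDC 2 or DDC 4 (adjusted p 0.0589 to 0.0813 by edgeR). The sum of the B cell markers went from 2.95 to 4.72 CPM to 6.29 to 9.20 CPM. Only 1 of them, Cd22, passed a filter of 1 CPM in 4 libraries, and it was the marker called higher.

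Cholangiocyte markers rose in 7 of 8 cases (83.6 to 165 and 739 to 1135 CPM), stellate cell and fibroblast markers in 4 of 8 (338 to 400 and 933 to 1066 CPM) and sinusoidal endothelial markers in 3 of 6 (137 to 161 and 177 to 237 CPM), where 30.2% of all genes were called higher. With library totals alone, under which 58.9% of all genes were called higher, the stellate cell and endothelial counts were 6 of 8 and 6 of 6. All 8 hepatocyte markers were called lower, where 26.6% of all genes were. Their sum went from 142627 to 172417 CPM in controls to 58115 to 73428 CPM in DDC, and their high levels match the labelled tissue. With library totals alone 7 of the 8 were called lower, beside 8.96% of all genes. The marker that lost its call was Cps1 (0.94-fold, edgeR adjusted p = 0.359). No marker was at 0 in every library. The part of these cell types in the members' differences was not tested.

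The members were also set against Ptprc, which encodes the pan-leukocyte antigen CD45 and rose 3.22-fold, from 15.9 ± 1.40 to 51.1 ± 1.20 CPM. This description was chosen with the data in view and carries no test. Ptprc rose least of the 5 pan-leukocyte markers, whose median log2 fold change was 2.63 and whose summed level rose 5.30-fold. Ratios to another of these markers would therefore stand lower in DDC relative to controls. The ratio of Nlrp3 to Ptprc was 0.0407 to 0.0834 in controls and 0.114 to 0.164 in DDC, without overlap, and was 2.27-fold higher in DDC. Ratios for Nlrc4, Aim2, Pycard, Casp1, Casp4, Ripk3 and Mlkl overlapped between the groups, with DDC over control from 0.954 for Casp1 to 1.43 for Mlkl. The ratio of Gsdmd to Ptprc was 1.26 to 1.77 in controls and 0.690 to 0.717 in DDC, 2.03-fold lower, and that of Gsdme was 2.51-fold lower, both without overlap. Across all other genes tested, 3.9% had a ratio to Ptprc that was higher in DDC without overlap and 68.5% one that was lower. Against Adgre1, a macrophage marker, Nlrp3 was again higher and Gsdmd and Gsdme lower without overlap, as were 3.2% and 69.7% of other genes. Within the Kupffer cell list, Marco, C1qc, C1qb and Vsig4 rose more than Adgre1 did.

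**Figure D4:**
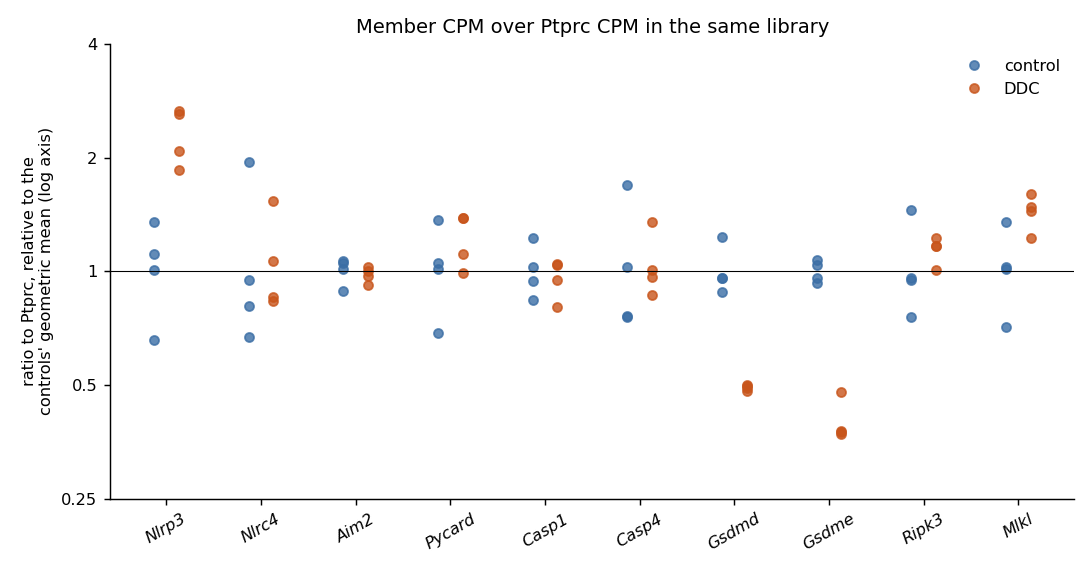
Points give the CPM of each gene over the CPM of Ptprc in the same library, relative to the controls' geometric mean (log axis), for 4 control (blue) and 4 DDC (orange) libraries. Nlrp3 lies above the controls in every DDC library, Gsdmd and Gsdme lie below them, and the other 7 genes overlap.

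Of 14 other sensors and adaptors of the pathway, 9 were called higher and 3 lower, with a median log2 fold change of 1.28. Over all genes 30.2% were called higher and 26.6% lower. Scaling by library totals alone gave 10 and 1, beside 58.9% and 8.96% of all genes. Naip6 and Naip2, ligand-binding partners of Nlrc4 whose reads may be split with near-identical Naip copies, rose 3.68-fold and 3.32-fold. Nod2, a sensor of bacterial wall fragments, rose 6.34-fold from 0.268 ± 0.144 to 1.71 ± 0.493 CPM, and Card9, a signalling adaptor of myeloid cells, 4.74-fold. Mefv, which encodes pyrin, rose 4.45-fold.

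Nlrp6, an NLR of intestine and liver, went the other way. It was 332, 309, 345 and 351 CPM in controls 1 to 4 and 114, 97.5, 117 and 113 CPM in DDC 1 to 4, and fell 3.03-fold (log2 change -1.60 ± 0.08 SE, adjusted p = 2.17e-07 by edgeR). Per length it averaged 51.2 FPKM in controls and 25.9 FPKM in DDC, above the mean of every member in either group. Nek7, which binds NLRP3 and licenses it, was called lower by 1.44-fold, but its log2 fold change of -0.52 became 0.10 with library totals alone. Nlrp12 was called lower by 2.64-fold with overlapping groups (edgeR adjusted p = 0.0211), and its call ended when any of 5 libraries, controls 2 and 4 and DDC 2, 3 and 4, was left out (adjusted p 0.0525 to 0.0693 by edgeR) and with library totals alone (0.12). Naip1 was called higher by 1.85-fold and lost its call without control 1, 2 or 3 or DDC 1 or 3 (adjusted p 0.0516 to 0.0588).

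Guanylate binding proteins are interferon-induced GTPases, some of which expose bacterial lipopolysaccharide to caspase-11. These and the related GTPases Irgm1 and Irgm2 rose in 10 of 10 cases, where 30.2% of all genes were called higher. Their median log2 fold change was 1.34. Gbp2 rose 4.87-fold, from 5.89 ± 0.957 to 28.7 ± 6.01 CPM. Gbp8, Gbp9 and Gbp4 rose 4.73-fold, 4.09-fold and 2.91-fold, and reads may be shared within this family.

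Genes that restrain the pathway rose in 7 of 9 cases and none was called lower, beside 30.2% and 26.6% of all genes. Their median log2 fold change was 1.06. Tnfaip3, which encodes the NF-kB inhibitor A20, rose 5.09-fold, from 6.97 ± 1.62 to 35.5 ± 2.92 CPM. Il18bp, the decoy that binds interleukin-18, rose 5.01-fold, from 12.3 ± 1.38 to 61.5 ± 7.70 CPM. Nlrc3 rose 3.93-fold and Il1rn, the interleukin-1 receptor antagonist, 3.83-fold. Serpinb1a, an inhibitor of inflammatory proteases, did not pass (edgeR adjusted p = 0.992), but without control 2 it was called higher (log2 fold change 0.99, adjusted p = 0.0109).

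Of the cytokines released by these routes, Il1b was 4.07, 1.02, 4.17 and 1.05 CPM in controls 1 to 4 and 13.6, 16.1, 22.1 and 15.2 CPM in DDC 1 to 4, a 6.48-fold rise (edgeR adjusted p = 0.00209). Il1a rose 5.51-fold and Il33 3.91-fold. Il18, the other substrate of caspase-1, was 11.4, 6.15, 8.62 and 7.74 CPM in controls 1 to 4 and 8.74, 5.60, 7.29 and 5.83 CPM in DDC 1 to 4. It did not pass (log2 change -0.30 ± 0.21 SE, adjusted p = 0.239 by edgeR), and its groups overlapped.

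Among genes that trigger or prime inflammasomes 7 of 12 were called higher and 3 lower, with a median log2 fold change of 0.86. Over all genes 30.2% were called higher and 26.6% lower, so the lower calls were near the background. Scaling by library totals alone gave 10 and 1, beside 58.9% and 8.96% of all genes. Tlr2 rose 5.18-fold, or 7.81-fold without control 2, and the channel gene Panx1 5.13-fold. P2rx7, the ATP-gated channel that lets potassium out, rose 3.89-fold, from 4.76 ± 1.24 to 18.5 ± 0.585 CPM, and Tlr4 3.48-fold. Txnip, a thioredoxin inhibitor that binds NLRP3, fell 3.42-fold, from 385 ± 40.9 to 113 ± 30.1 CPM. The other calls downward, Hmgb1 and Gsk3b, changed sign with library totals alone (log2 fold changes -0.45 and -0.21 against 0.17 and 0.41). Without DDC 3 or without DDC 4 the Gsk3b call also ended (adjusted p = 0.0527 and 0.0502).

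Of 6 other caspases tested, 3 were called higher, and 6 with library totals alone, beside 30.2% and 58.9% of all genes. With DESeq2, limma voom or the replicate block 2 were called higher. Their median log2 fold change was 0.028, against 0.073 for all genes. Casp12, which lies 8646 bases beyond Casp4 on chromosome 9 at 5345430 to 5373032, rose 6.89-fold, from 2.41 ± 0.340 to 16.6 ± 3.28 CPM. Casp2 rose 1.75-fold. Casp8, the apoptotic initiator that holds necroptosis back, was called higher by 1.12-fold with overlapping groups (edgeR adjusted p = 0.0477). The Casp8 call ended on leaving out any library but DDC 4 (adjusted p 0.0626 to 0.127 by edgeR).

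Other gasdermins were close to absent: Gsdma, Gsdma3 and Gsdmc4 averaged 0.086 CPM or less in either group and were not tested. Chmp4b, part of the ESCRT complex that repairs gasdermin pores, rose 1.43-fold. Ninj1, which ruptures the membrane after pores form, stood at 69.2 ± 3.60 CPM in controls and at 75.9 ± 0.876 CPM under DDC and did not pass (1.10-fold, edgeR adjusted p = 0.0552), although its groups did not overlap. It was called higher under 8 of 18 alternatives, among them DESeq2 (adjusted p = 0.0404), both other filters and library totals alone (1.69-fold, edgeR adjusted p = 1.77e-06).

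Of 15 partners of Ripk3 and Mlkl, 7 were called higher and 4 lower, with a median log2 fold change of 0.25. Over all genes 30.2% were called higher and 26.6% lower, so the lower calls were near the background. Scaling by library totals alone gave 12 higher and 1 lower, beside 58.9% and 8.96% of all genes. Tnf, whose receptor can start necroptosis, rose 18.0-fold, from 0.195 ± 0.0924 to 3.55 ± 1.01 CPM. Zbp1, a sensor of Z-form nucleic acid that engages RIPK3, rose 4.86-fold, from 3.66 ± 0.326 to 17.8 ± 1.85 CPM. Birc3 rose 1.61-fold. Cflar, which encodes the caspase-8 regulator cFLIP, fell 2.00-fold, from 113 ± 14.9 to 56.8 ± 4.46 CPM. Ripk1, the kinase upstream of RIPK3, was called lower by 1.42-fold, and its log2 fold change of -0.51 became 0.12 with library totals alone. Xiap and Cyld were also called lower and changed sign under that scaling, from -0.61 and -0.30 to 0.014 and 0.33. The Traf2 call, 1.19-fold upward, ended without control 4, DDC 1 or DDC 3 (adjusted p = 0.0544, 0.0697 and 0.0625).

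**Figure D5:**
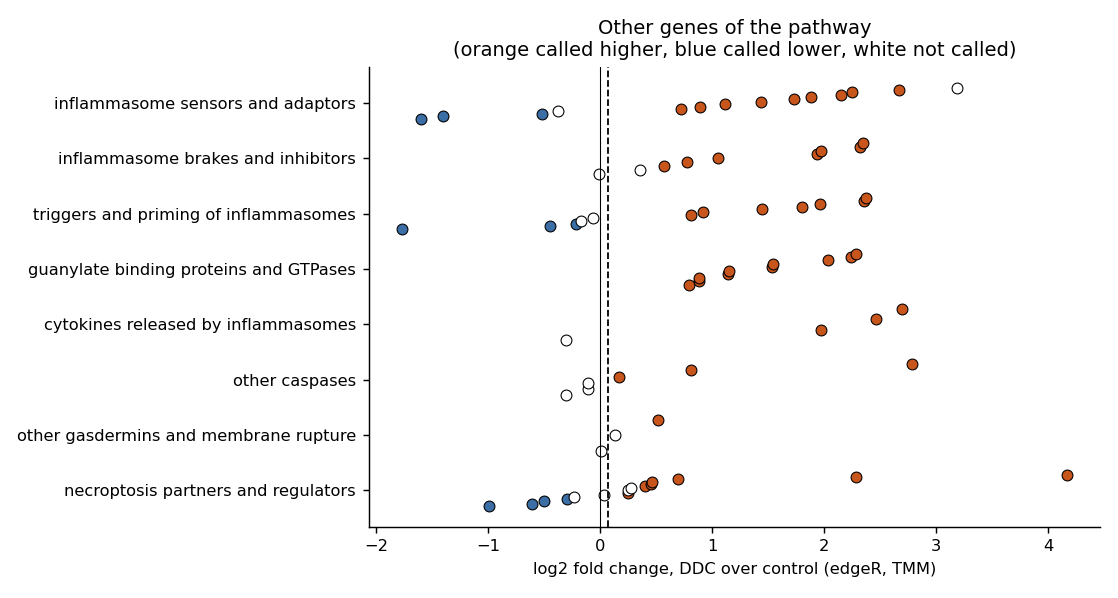
Each point is the log2 fold change of DDC over control (edgeR, TMM) for 1 gene in 8 lists of pathway genes, orange where called higher, blue where called lower and white where not called, with a dashed line at the median of all genes, 0.073. All 10 GTPases lie to the right, while sensors, triggers and necroptosis partners spread to both sides.

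For 9 members the gene with the most similar profile is given, sought among 15545 other genes, by the root mean square difference of centred log2 CPM over the 8 libraries. Gsdmd was nearest to Dnase2a, a lysosomal DNase gene, at 0.045, and Aim2 to Ifngr1, an interferon-γ receptor gene, at 0.046. The nearest to Ripk3 was Gdpd1 (0.083) and to Casp1 Slc16a6 (0.099). Mlkl was nearest to the purinergic receptor gene P2ry12 (0.11), Pycard to 4930452B06Rik (0.12) and Casp4 to Gbp4 (0.14). The loosest matches among these 9 were those of Nlrc4 with S100a6 at 0.18 and of Nlrp3 with Inhbb at 0.19.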

How the data were processed

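Liver RNA from 4 control and 4 DDC-fed mice was analysed from the authors' gene tables. The deposited counts are whole-number, unnormalized counts per Ensembl gene for 55401 genes, 21933 of them at 0 throughout. The deposited FPKM are the authors' values and not an exact rescaling of these counts. The log2 ratio of Casp4 to Casp1, for example, was 0.137 higher in DDC by FPKM and 0.1125 higher by counts. HISAT2, StringTie, DESeq2, cutadapt and FastQC are named without versions or roles, with GRCm38 and mm10, per the submitters' processing notes. Whether counting used strand is not given there.

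Counts of all 8 libraries were fitted with edgeR 4.0.16 (R 4.3.3; TMM, filterByExpr, robust quasi-likelihood, no covariate), two-sided, with Benjamini-Hochberg adjustment over 19535 genes at 0.05. A standard error is the log2 fold change over the square root of F. Ratios of member pairs used exact permutation over 70 assignments. Alternatives were other scalings and filters, DESeq2 1.42.0, limma 3.58.1 (voom, and log2 FPKM with pseudocounts of 1 and 0.1), a replicate block and leaving out each library. The fit was tested on simulated data. Promoter motifs were searched by plain letter matching on both strands, the NF-kB and interferon response element consensus with 10 letters each. Libraries are labelled as biological replicates.

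Members and gene lists were chosen with earlier results of these data known. Named genes are the members, and from each list up to 4 called genes of at least 1 CPM by fold, the largest called against the list's majority, and the most abundant where none was called. The rule also takes the nearest profile of each member (log2 CPM with a prior count of 2). The nearest profile of Gsdme and 1 caspase gene, left out of its list, are not reported here. Other genes named, among them Nek7, Nlrp12, Naip1, Naip2, Il18, Serpinb1a, Ninj1, Ripk1, Xiap, Cyld, Traf2, Hmgb1 and Gsk3b, were chosen after their values were seen. For the marker lists mostly list counts and summed levels are given. The single markers named, among them Ptprc and Adgre1, were chosen after seeing the data.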

Additional observations from a re-analysis of the deposited data

Results flagged for a closer look

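In groups of 4, 174 groups of values were screened for a library whose gap to its nearest neighbour was above Dixon's critical value as a share of the group's range, and 12 met it, where chance gives about 1 in 20. Among the members' own CPM no group did so. The ratio of Gsdme to Gsdmd was 0.0816 in DDC 1 and 0.0640 to 0.0653 in the other DDC libraries. Control 2 was high for Tlr2 (6.57 CPM against 2.00 to 2.25), Serpinb1a (14.7 against 2.25 to 3.63) and Naip5 (10.97 against 7.25 to 7.79), and low for Pgam5 (13.7 against 17.3 to 17.9). Control 4 was high for Myd88 (33.3 CPM against 27.4 to 27.9) and for Nlrp1a (0.33 CPM, with 0 counts in the other controls), and control 3 for Irf8 (10.5 against 9.10 to 9.23). Among DDC livers, DDC 1 was high for Nlrp12 (19.7 CPM against 7.45 to 9.39) and DDC 3 for Cyld (24.5 against 23.1 to 23.3). DDC 2 was high for Hmgb1 (60.4 CPM against 48.4 to 49.6) and low for Nfkb1 (49.1 against 51.9 to 52.4).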

How the results depend on the processing

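Under 18 alternatives each, 9 members kept direction and call in all, and Gsdme kept its direction in 18 and its call in 12. Members called higher numbered 10 under every scaling, filter, tool and unit tried and with the replicate block, and 9 to 10 when a library was left out, while the share of all genes called higher ran from 18.2% to 61.4%. Over all genes, 5893 were called higher and 5205 lower, but 11505 and 1750 with library totals alone, 11987 and 1815 with limma on log2(FPKM + 1), and 11976 and 1826 with log2(FPKM + 0.1), none of which correct for composition. With the replicate block 4810 and 4654 genes were called. Same-numbered libraries did not deviate together (correlations from -0.254 to 0.014 over 1000 genes), which cannot exclude that the numbers pair the animals. The log2 ratio of Casp4 to Casp1, 0.14 higher in DDC, ran from -0.094 without control 4 to 0.38 without control 2, and was -0.075 without DDC 3. Control counts were lowest for Nlrp3 (37 to 60), Nlrc4 (32 to 96) and Pycard (46 to 75).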

Other observations

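Controls 1 and 3 held Il1b at 4.07 and 4.17 CPM and controls 2 and 4 at 1.02 and 1.05 CPM. For Nlrp12 the same controls stood the other way, at 20.7 and 17.0 CPM in controls 1 and 3 and 39.2 and 39.7 CPM in controls 2 and 4. No member of the 10 showed such a split by these pairs except Gsdme, at 11.5 and 12.1 CPM in controls 1 and 3 and 9.13 and 9.0 CPM in controls 2 and 4. These values were noticed after the data were seen and no test was made of them.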
